A study of Mus musculus with 6 samples.

Results

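The genes described here encode the machinery that docks, primes and fuses synaptic vesicles: 46 genes chosen by symbol, each found once among the 32719 genes of the mouse count files. They comprise synaptotagmins, SNARE proteins and their regulators, vesicle proteins and active zone scaffolds. RNA came from vagal jugular-nodose ganglia of wild-type C57BL/6J male mice, which carry the cell bodies of vagal sensory neurons. Per the titles, 3 libraries are treated and 3 are controls. The protocol describes subcutaneous osmotic pumps that delivered PBS with S961, an insulin receptor antagonist, at 10 nmol per week for 2 weeks, or PBS alone. The treatment field names S961 for all 6 libraries, so the assignment of controls to PBS rests on the titles and the protocol. Nothing in the labels says whether a library is 1 animal or a pool, and every p-value below measures only the spread between these libraries.

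In a resting terminal, vesicles are tethered by synapsins, carry a Rab3 GTPase and dock at an active zone built by RIM, Bassoon and Piccolo. Munc13 proteins prime them, and a vesicle SNARE (a VAMP) pairs with target membrane SNAREs (a syntaxin and a SNAP-25 type protein) into the complex that fuses the membranes. Calcium binding to synaptotagmin triggers fusion, complexin holds and assists the assembled SNAREs, and NSF with its SNAP adaptors takes the spent complexes apart. Vagal sensory neurons use this machinery at their central terminals in the brainstem, and some of it also in large dense-core vesicles that hold neuropeptides. The libraries measure messenger RNA in the cell bodies and surrounding cells of the ganglion, not protein at terminals.

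The libraries held 12898607 to 33522486 gene counts, and the smallest count of any release gene in any library was 92. Counts were scaled to CPM after TMM (trimmed mean of M values) adjustment of library sizes, and this is the unit of every level unless a level is given per kb of exon. The source and tissue fields read spinal cord, and of 10 spinal cord markers 3 passed the filter on low counts. Aqp4, Gfap and Chat, which passed, had 1521, 170 and 65 counts summed over all libraries, while the other 7 had 2 to 28, among them the oligodendrocyte genes Mog with 2 and Olig2 with 8. Treated replicate 3 had the fewest counts and differed most from the rest. Across 12195 genes it correlated with each of the remaining 5 libraries at 0.920 to 0.944, against 0.968 to 0.989 among those 5. Many fold changes and marker counts are given with and without it. A fold change that is given once is from all libraries and can also depend on treated replicate 3.

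Per kb of annotated exon, a scale that allows genes to be compared with each other, the mean levels over the 6 libraries spanned a 106.9-fold range, and 8 of the 46 genes stood above 100 CPM per kb. The complexin Cplx1 was the most abundant, at 220.2 ± 46.6 CPM per kb in treated and 245.5 ± 21.9 in control ganglia (SD, n = 3 each). The atypical synaptotagmins Syt4 and Syt11, the t-SNARE Snap25, the synapsin Syn1, the vesicle glycoprotein Sv2c, the GTPase Rab3a and the vesicle SNARE Vamp2 followed. Their control means lay between 108.7 and 156.1 CPM per kb. The lowest library of Cplx1, at 166.4 CPM per kb, was above the highest of any other release gene, 161.7 for Syt4, whereas from Syt4 to Vamp2 the ranges of neighbours overlapped. At the other end, 7 genes were under 5 CPM per kb, among them Unc13b, the broadly expressed SNAREs Snap23 and Vamp3, and Doc2b, a calcium sensor of spontaneous release. Syn3 was the lowest at 1.71 ± 0.928 CPM per kb in treated and 2.65 ± 0.168 in control ganglia.

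**Figure D1:**
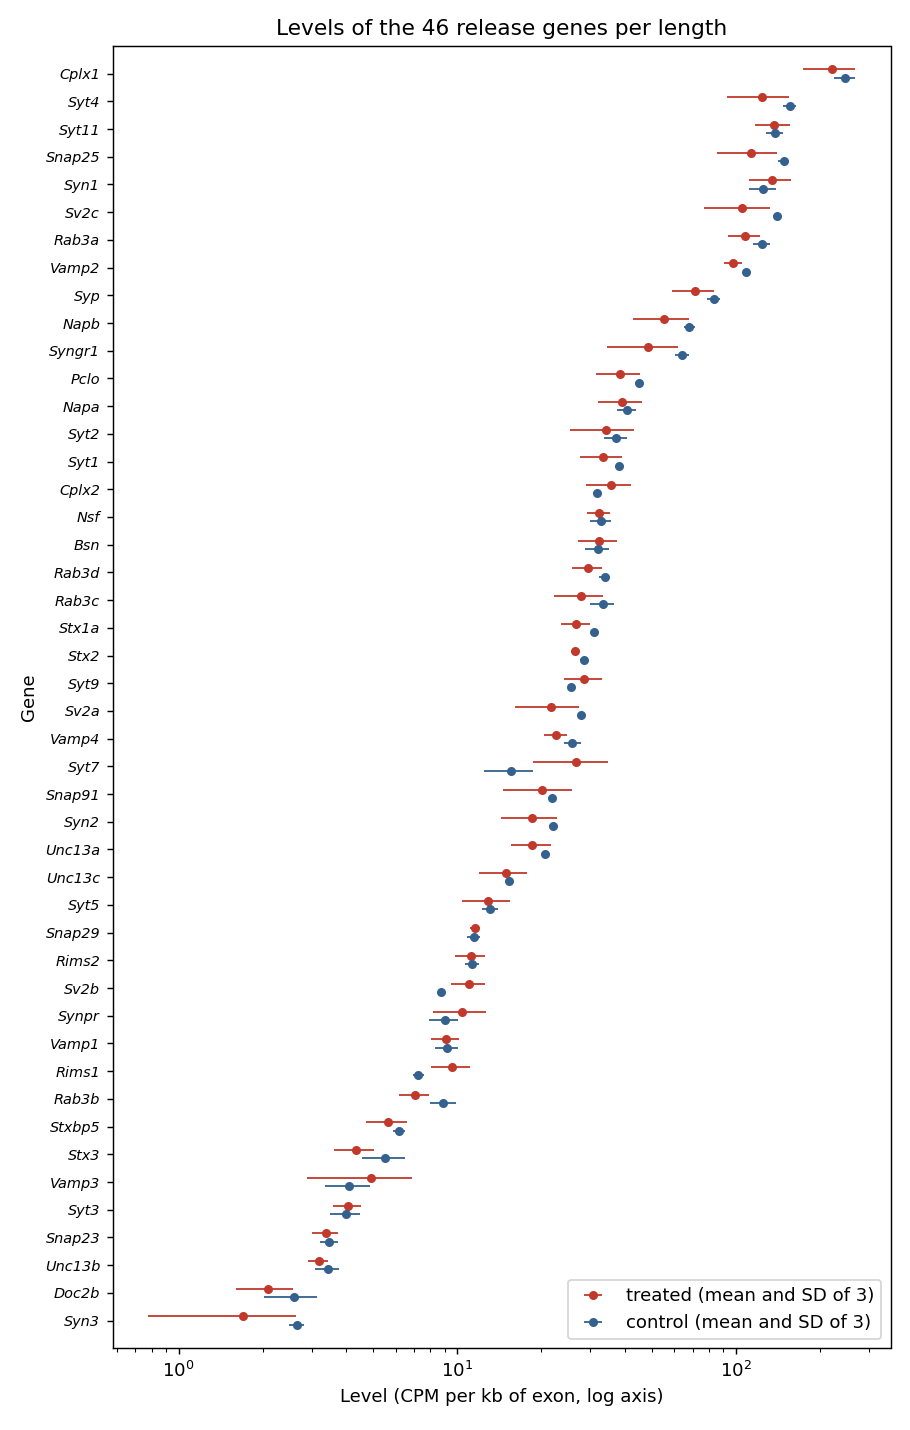
Levels of the 46 release genes in CPM per kb of exon on a log axis, ordered by the mean over all libraries, with points for the mean and bars for the SD of 3 treated (red) and 3 control (blue) libraries. Cplx1 leads at 220.2 CPM per kb in treated and 245.5 in control ganglia, and the treated bars are mostly the wider.

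Calcium sensors of fast release were present. Syt1 and Syt2, the usual fast sensors of forebrain and hindbrain synapses, stood at 33.3 ± 5.83 and 34.2 ± 8.85 CPM per kb in treated ganglia and at 38.0 ± 0.735 and 37.1 ± 3.63 in controls, and the ranges over libraries overlapped between the genes. The ganglia held Sv2c at 104.8 ± 28.0 CPM per kb in treated and 140.2 ± 4.73 in control libraries, against 21.7 ± 5.60 and 27.7 ± 0.670 for Sv2a, the form that is widespread in brain. SV2 proteins serve as receptors for botulinum neurotoxin A. Vamp2, the SNARE cut by tetanus toxin, was at 97.4 ± 7.20 CPM per kb in treated and 108.7 ± 3.20 in control ganglia, and its relative Vamp1 was at 9.09 ± 1.07 and 9.17 ± 0.889.

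Treated ganglia were set against controls to see how levels of release genes differ after S961 infusion into the animal. By edgeR's quasi-likelihood test with Benjamini-Hochberg adjustment over all 16019 genes tested, 0 of the 46 release genes passed an adjusted p of 0.05, where 0% of all genes passed, and the smallest adjusted p of a release gene was 0.670. All 46 passed the filter on low counts. At an unadjusted p under 0.05 there were 3 higher release genes (4% of all genes) and 1 lower (2.67% of all genes), in all 4 (6.67% of all genes). At an adjusted p of 0.05, DESeq2 called 0 release genes, where it called 0.556% of all genes, and limma-voom called 0, where it called 0% of all genes. The log2 fold changes, treated over control, ran from -0.62 to 0.77. They were negative for 35 genes and positive for 11 (23.9% positive, against 52.8% of all genes tested). Their median was -0.12, where that of all genes was 0.016.

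The downward lean was largest in 1 library. Relative to the control mean, the median release gene stood at 0.011, -0.10 and -0.38 on the log2 scale in treated replicates 1, 2 and 3, and at 0.017, 0.023 and -0.040 in control replicates 1, 2 and 3. Treated replicate 3 was the lowest of the 6 libraries for 35 of the 46 genes (76.1%), where it was the lowest for 34.2% of all genes tested and the highest for 34.4%. Release genes made up 1.22%, 1.16% and 0.846% of gene counts in treated replicates 1, 2 and 3, and 1.21%, 1.23% and 1.16% in the controls. Without treated replicate 3 the log2 fold changes were negative for 26 genes and positive for 20, and the median was -0.0655, where that of all genes was 0.0033. In that fit edgeR called 0 release genes, where 0.0537% of all genes passed. Without treated replicate 1, whose median was the nearest to the control mean among treated libraries, the median was -0.24.

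Several marker lists of other cell types were highest in that library. All 8 tested of 10 fat cell markers had positive log2 fold changes, and their summed level was 9.99, 73.0 and 537 CPM in treated replicates 1, 2 and 3, against 13.6 to 41.9 CPM in controls. Of the 8, 7 were positive without treated replicate 3. Summed macrophage markers (10 of 10 positive) reached 62.5 to 478 CPM in treated and 49.5 to 120.4 CPM in control libraries. Summed fibroblast markers (10 of 10 positive) reached 494 to 2203 CPM in treated and 678 to 1174 CPM in control libraries, and summed neutrophil markers (7 of 7 tested positive, of 10) 2.59 to 57.4 CPM and 1.77 to 15.9 CPM. When that library was left out, 8 of 10 macrophage and 5 of 7 neutrophil markers were positive, and 1 of 10 fibroblast markers, whose median log2 fold change was then -0.48. The highest value of each of these 4 lists was that of treated replicate 3, and no marker of them was at 0 in all libraries. In bulk RNA, fewer neurons and less RNA per neuron cannot be told apart. A list of 26 pan-neuronal genes without release genes stood at 0.070, -0.0105 and -0.29 relative to the control mean in treated replicates 1, 2 and 3, and its median log2 fold change was -0.081 with all libraries and 0.040 without treated replicate 3. Skeletal muscle markers went the other way, with 1 of 10 positive and summed levels of 23.7 to 102 CPM in treated and 47.0 to 434 CPM in control libraries, and with 0 of 10 positive without treated replicate 3. Schwann cell markers were positive in 10 of 10, with summed levels of 1447 to 2307 CPM in treated and 1171 to 1879 CPM in control libraries, and satellite glia markers in 8 of 10, with 3381 to 4211 and 2875 to 3985 CPM. Markers of neuron classes differed as well. Summed nodose markers (0 of 10 positive) lay at 242 to 478 CPM in treated and 564 to 598 CPM in control libraries, and summed jugular markers (9 of 9 positive) at 1687 to 2064 and 1376 to 1634 CPM. Most of the jugular sum was Nefh, also a pan-neuronal gene, at 970 to 1463 CPM in treated and 1101 to 1308 CPM in control libraries. The median log2 fold change was -0.67 over nodose and 0.80 over jugular markers, and -0.43 and 0.62 without treated replicate 3. Summed markers of sympathetic neurons and glomus cells (2 of 9 tested positive, of 10) lay at 227 to 348 CPM in treated and 373 to 389 CPM in control libraries. Chga made up most of that sum, at 157 to 251 CPM in treated and 238 to 258 CPM in control libraries. Its groups overlapped, and its log2 fold change was -0.18 with all libraries and 0.01 without treated replicate 3. Genes known to be induced by nerve injury were positive in 14 of 16, and their summed level was 858, 1181 and 1123 CPM in treated replicates 1, 2 and 3, against 572 to 589 CPM in controls. Leaving out treated replicate 3, the positive counts were 10 of 10 for Schwann cells, 8 of 10 for satellite glia, 1 of 10 for nodose, 9 of 9 for jugular, 3 of 9 for sympathetic and 15 of 16 for nerve injury. The part of any of these lists in the levels of release genes was not tested.

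**Figure D2:**
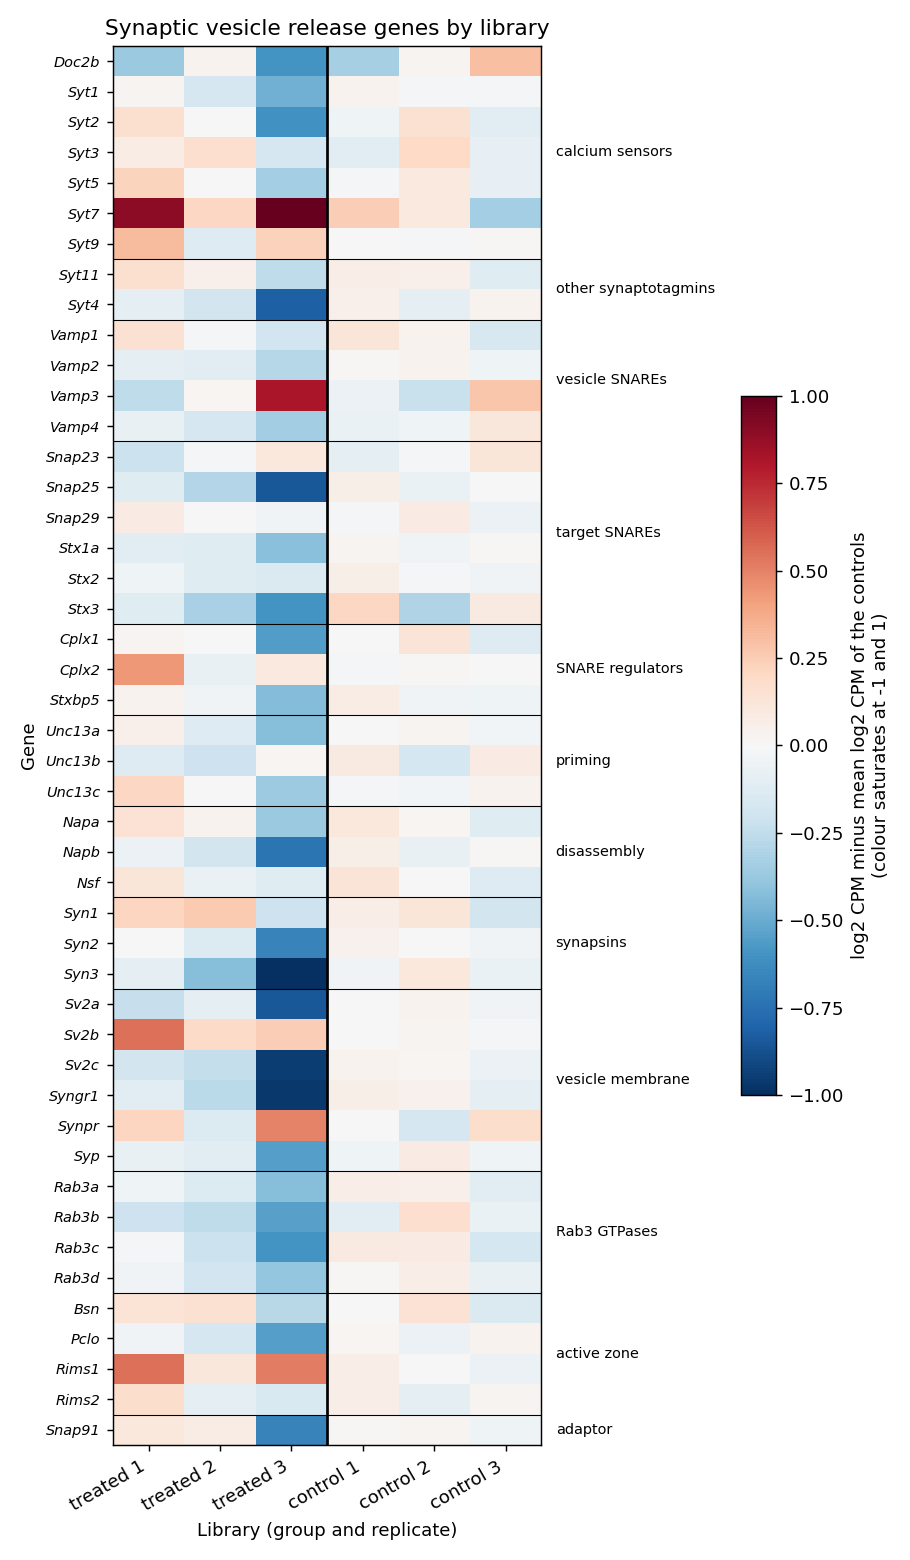
Levels of the 46 release genes (rows, grouped by role) in each library (columns, treated left of control), as log2 CPM minus the mean log2 CPM of the controls. Treated replicate 3 is the bluest column, with a median of -0.38, while Syt7, Sv2b and Rims1 are red in all 3 treated libraries.

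Counted by library, 2 release genes had every treated value above every control value (4.35%, where 7.07% of all genes did) and 12 had every treated value below (26.1%, where 7.63% of all genes did). The 2 higher genes were Rims1 and Sv2b. The 12 lower ones were Snap25, Sv2c, Sv2a, Syngr1, Syp, Syt4, Stx1a, Stx2, Vamp2, Vamp4, Rab3b and Syn3. The exact permutation p of each is 0.1, the smallest that 3 libraries against 3 allow. Without treated replicate 3 the counts were 4 higher (11.5% of all genes) and 12 lower (11.7% of all genes). The 12 lower were the same genes. That they stayed apart was largely fixed in advance, since groups that lie apart mostly remain so when a library is left out. Without treated replicate 2 there were 6 higher (11.4% of all genes) and 13 lower. Without treated replicate 1 there were 2 higher and 22 lower (15.7% of all genes). In either direction, 23.46% and 30.75% of all genes had groups without overlap in these 2 fits.

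Among the calcium sensors, Syt7 had the largest positive fold change of the 46 genes. Syt7 (chromosome 19, 10389090 to 10453180, plus strand, GRCm38), a high-affinity sensor of asynchronous and dense-core vesicle release, had 214, 133 and 252 CPM in treated replicates 1, 2 and 3, against 137, 123 and 91.2 CPM in the controls. Treated replicates 1 and 3 were above every control, but treated replicate 2 was just below the highest control, so the groups overlapped. Its log2 fold change was 0.77 ± 0.25 (SE; edgeR adjusted p = 0.692, exact permutation p = 0.2), and without treated replicate 3 it was 0.57. Syt2 had 316, 281 and 186 CPM in treated and 274, 315 and 261 CPM in control ganglia, groups that overlapped, with a log2 fold change of -0.12 ± 0.19 that changed sign to 0.077 without treated replicate 3. Syt1, Syt3, Syt5, Syt9 and Doc2b had log2 fold changes of -0.30 to 0.15 with overlapping groups, and of -0.17 to 0.11 without treated replicate 3.

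Syt4 (chromosome 18, 31437808 to 31447406, minus strand) and Syt11 (chromosome 3, 88744700 to 88775164, minus strand) are synaptotagmins whose first calcium-binding domain lacks an acidic residue found in Syt1. Syt4 had 566, 533 and 345 CPM in treated replicates 1, 2 and 3 and 629, 570.0 and 623 CPM in control replicates 1, 2 and 3. Every treated library lay below every control, by a small margin for treated replicate 1. The log2 fold change was -0.34 ± 0.18 (SE; edgeR adjusted p = 0.742) and -0.14 without treated replicate 3. Syt11, at a log2 fold change of -0.0072 ± 0.13, showed no such separation.

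Of the 6 target membrane SNAREs, 5 had negative log2 fold changes and none passed the test. Snap25 (chromosome 2, 136713453 to 136782428, plus strand), the target membrane SNARE that botulinum toxin A cleaves, had 922, 821 and 558 CPM in treated ganglia, against 1049.7, 960.4 and 1008 CPM in controls. The groups did not overlap, and treated replicate 3 was far below the rest. Its log2 fold change was -0.39 ± 0.18 (SE; edgeR adjusted p = 0.737), and without treated replicate 3 it was -0.21. Stx1a (chromosome 5, 135023482 to 135051100, plus strand), the syntaxin of synaptic fusion, had 76.7, 75.6 and 61.5 CPM in treated and 84.0, 80.2 and 82.9 CPM in control ganglia, and its log2 fold change was -0.21 ± 0.10, and -0.11 without treated replicate 3. All 3 treated libraries were again the lower ones.

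Stx2, which is expressed in many tissues, had 126, 119.8 and 118 CPM in treated ganglia, against 136, 129 and 127 CPM in controls, a log2 fold change of -0.11 ± 0.0805. The groups missed each other by less than 1 CPM. Stx3, the syntaxin of ribbon synapses and apical membranes, had 28.7, 24.9 and 20.6 CPM in treated and 35.9, 25.3 and 33.2 CPM in control ganglia, and treated replicate 1 lay above the lowest control (log2 fold change -0.34 ± 0.17, and -0.23 without treated replicate 3). Snap23 and Snap29, which serve fusion outside synapses, were at -0.042 ± 0.14 and 0.016 ± 0.090.

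Vamp2 (chromosome 11, 69088490 to 69092384, plus strand) had 389.7, 384 and 339.6 CPM in treated ganglia, against 417, 425 and 401 CPM in controls. The groups did not overlap, with a log2 fold change of -0.16 ± 0.095 (SE; edgeR adjusted p = 0.746), and -0.098 without treated replicate 3. Vamp4, a SNARE of endosomes and of bulk vesicle retrieval, had 112, 105 and 92.8 CPM in treated and 113, 114 and 127 CPM in control ganglia, a log2 fold change of -0.19 ± 0.10 that was -0.12 without treated replicate 3, and treated replicate 1 was almost level with control replicate 1. Vamp1 was at -0.012 ± 0.12. Vamp3, the broadly expressed cellubrevin, was at 0.25 ± 0.29 and had its highest level, 20.7 CPM, in treated replicate 3, where fat cell and macrophage markers were also highest. Its log2 fold change was -0.12 without that library.

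**Figure D3:**
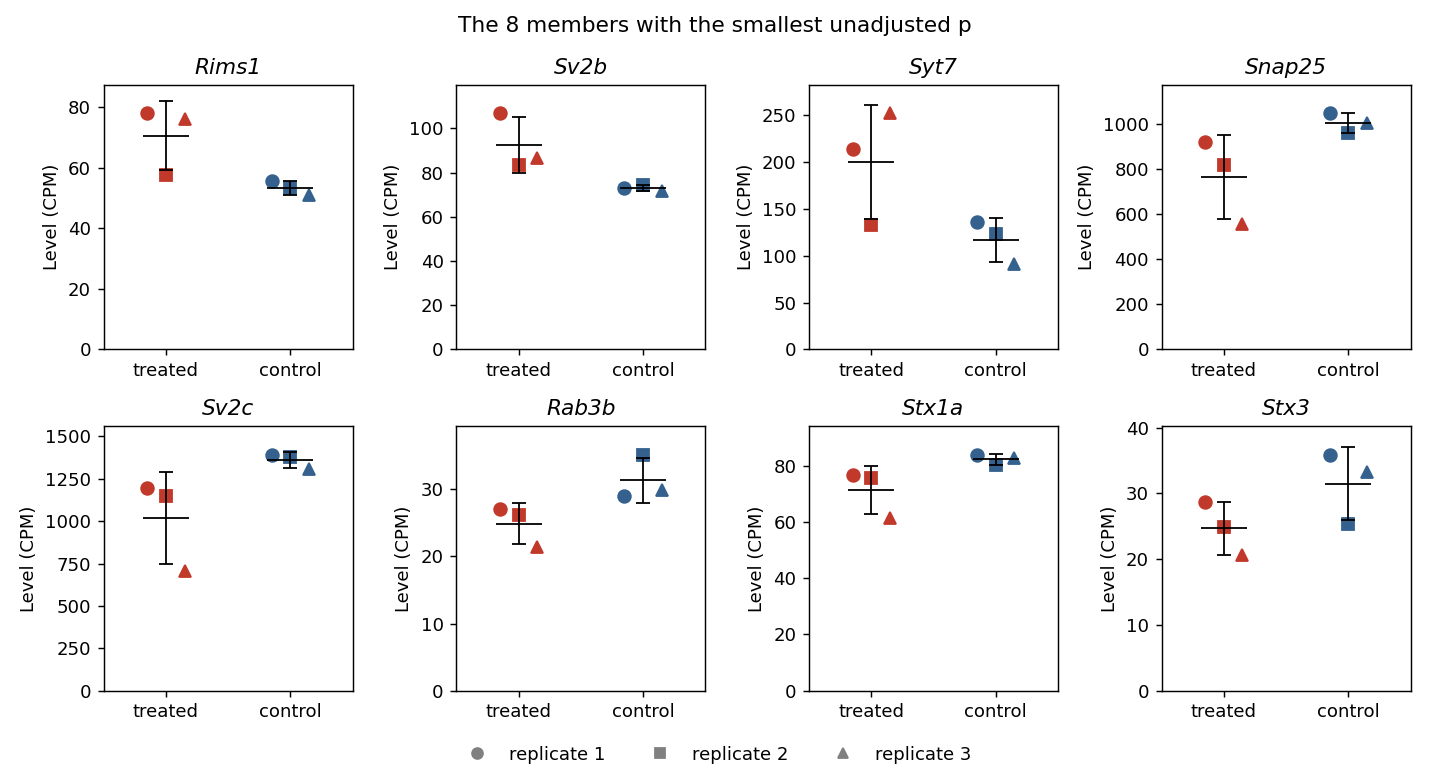
CPM in each library of the 8 release genes with the smallest unadjusted p, treated left of control, with symbols for replicate numbers, a line at the mean and bars for the SD (n = 3 each). Rims1 and Sv2b have all treated libraries above the controls, while for Snap25, Sv2c and Stx1a treated replicate 3 is the lowest point (558, 704 and 61.5 CPM).

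The groups overlapped for all 9 regulators, priming factors and disassembly proteins. Cplx1 had 546, 536 and 364 CPM in treated ganglia, against 537, 585 and 489.7 CPM in controls, and its log2 fold change of -0.16 ± 0.17 was 0.0094 without treated replicate 3. Cplx2 was at 0.17 ± 0.13 and the SNARE-binding inhibitor Stxbp5 (tomosyn) at -0.13 ± 0.13, and they were at 0.20 and -0.0021 without that library. Unc13a, the main priming factor of central synapses, had 270.5, 239 and 194 CPM in treated and 260.0, 266 and 256 CPM in control ganglia (log2 fold change -0.15 ± 0.13, and -0.034 without treated replicate 3), with treated replicate 1 above all controls. Unc13b and Unc13c were at -0.11 ± 0.11 and -0.034 ± 0.14. Napb, the neuronal beta-SNAP, had 459.6, 421 and 288 CPM in treated and 499, 456 and 483 CPM in control ganglia, a log2 fold change of -0.30 ± 0.17 with treated replicate 1 just above the lowest control, and -0.12 without treated replicate 3. The ATPase Nsf and the ubiquitous alpha-SNAP Napa were at -0.022 ± 0.11 and -0.049 ± 0.14.

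Among the vesicle membrane proteins, closely related genes lay on opposite sides of the controls. Sv2b (chromosome 7, 75114894 to 75309262, minus strand) had 107, 83.5 and 86.8 CPM in treated ganglia, against 72.9, 74.3 and 71.9 CPM in controls. The controls lay within 3 CPM of each other and every treated library was above them. The log2 fold change was 0.34 ± 0.11 (SE; edgeR adjusted p = 0.685) and 0.38 without treated replicate 3. Sv2c (chromosome 13, 95954594 to 96132577, minus strand) had 1194, 1151 and 704 CPM in treated and 1393, 1379.6 and 1308 CPM in control ganglia. Here every treated library was below the controls, at a log2 fold change of -0.42 ± 0.20 (SE; edgeR adjusted p = 0.737), which was -0.21 without treated replicate 3.

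Sv2a had 109.6, 121 and 71.3 CPM in treated ganglia, against 128, 132 and 126 CPM in controls (log2 fold change -0.35 ± 0.18), likewise without overlap. Syngr1, a tetraspan vesicle protein, had 284.0, 255 and 157 CPM in treated and 320.0, 315.5 and 287 CPM in control ganglia (log2 fold change -0.40 ± 0.21). Treated replicate 1 missed the lowest control by under 3 CPM. Syp, the synaptophysin used as a marker of vesicles, had 412, 401 and 296 CPM in treated and 420.0, 459 and 421 CPM in control ganglia (log2 fold change -0.23 ± 0.14). Its relative Synpr went the other way, at 0.21 ± 0.17, with overlapping groups. Without treated replicate 3 the log2 fold changes were -0.16 for Sv2a, -0.19 for Syngr1, -0.091 for Syp and 0.048 for Synpr.

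The promoters of Rims1, Sv2b and Sv2c are shown because Rims1 and Sv2b were the 2 genes with all treated libraries above the controls and Sv2c is the related gene on the other side. Each line gives the 250 bases before the RefSeq start (GRCm38.p6, minus strand in all 3 cases), 5′ to 3′, with capitals for the GC box GGGCGG and the letters TATAAA on either strand. RefSeq windows were matched for 37 of the 46 genes, 47 windows in all, and Sv2b has 4 of them, of which the outermost is printed. The intervals are chr1:22806159-22806408 for Rims1, chr7:75309263-75309512 for Sv2b and chr13:96132578-96132827 for Sv2c.
Rims1: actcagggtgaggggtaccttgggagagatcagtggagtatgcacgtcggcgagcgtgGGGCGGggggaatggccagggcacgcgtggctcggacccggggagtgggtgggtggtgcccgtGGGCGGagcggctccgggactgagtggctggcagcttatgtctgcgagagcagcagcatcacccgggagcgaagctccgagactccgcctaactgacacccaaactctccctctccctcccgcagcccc
Sv2b: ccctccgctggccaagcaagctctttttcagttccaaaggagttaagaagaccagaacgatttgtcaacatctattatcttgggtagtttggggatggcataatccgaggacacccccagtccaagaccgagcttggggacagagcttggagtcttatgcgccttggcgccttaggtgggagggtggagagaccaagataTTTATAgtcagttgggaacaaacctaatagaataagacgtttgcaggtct
Sv2c: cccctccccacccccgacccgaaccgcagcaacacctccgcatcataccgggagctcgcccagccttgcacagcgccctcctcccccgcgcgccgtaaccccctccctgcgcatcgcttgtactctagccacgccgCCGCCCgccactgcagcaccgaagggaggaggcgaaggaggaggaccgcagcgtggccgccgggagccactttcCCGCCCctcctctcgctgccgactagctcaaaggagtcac

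The Sv2c and Rims1 windows held 26 and 19 CpG and 70.8% and 68.0% G or C, with 2 GC boxes each. The Sv2b window held 7 CpG and 48.8% G or C, with 1 match to TATAAA and 0 GC boxes. The median member window had 61.2% G or C and 15 CpG, against 52.4% and 6 over 32851 windows of all genes. GGGCGG was found in 28 of the 47 member windows (59.6%, against 32.7% of all windows) and TATAAA in 5 (10.6%, against 12.4%). The AP-1 letters TGANTCA were in 1 member window, of Syt2 (2.13%, against 6.75%), and the cAMP response letters TGACGTCA in 1, of Syn1 (2.13%, against 1.55%). The Syn1 window also held TTCAGCACC, the left part of the element bound by the neuronal repressor REST, which was in 0.301% of all windows. All motifs were read on both strands, none of these strings contains another, and a match is a description of letters only.

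Synapsins, which cluster vesicles in the reserve pool, had log2 fold changes of both signs. Syn1 (chromosome X, 20860511 to 20921004, minus strand) had 479, 495 and 357 CPM in treated ganglia, against 431, 447 and 361 CPM in controls. Treated replicates 1 and 2 were the 2 highest libraries and treated replicate 3 the lowest, so the log2 fold change was 0.10 ± 0.15 with all libraries and 0.24 without treated replicate 3. Syn2 was at -0.24 ± 0.16, and at -0.067 without that library. Syn3 had 30.3, 24.2 and 8.26 CPM in treated and 31.7, 34.9 and 31.1 CPM in control ganglia, the largest negative log2 fold change of the 46 at -0.62 ± 0.42, and -0.26 without treated replicate 3. Its exons share 1733 bases (14.1%) with Timp3 on the opposite strand. Timp3 had 207, 284 and 256 CPM in treated and 169.8, 251 and 192 CPM in control ganglia. The strand setting of the counting is not given in the sources used here, so reads from the shared bases cannot be assigned with certainty. In all, 13 of the 46 genes share exon bases with a gene on the opposite strand, including Syp with 16.8% and Syt4 with 14.5% of their exons. The genes that overlap Syp and Syt4 are not among the genes counted. Snap29 shares 1.74% of its exons with Pi4ka, which had 30597 counts over all libraries, against 5356 for Snap29.

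All 4 Rab3 GTPases, which mark vesicles for docking at RIM, had negative log2 fold changes. Rab3b (chromosome 4, 108879063 to 108943324, plus strand) had 27.05, 26.2 and 21.4 CPM in treated ganglia, against 29.0, 35.2 and 29.9 CPM in controls. It was the 1 release gene that was lower at an unadjusted p under 0.05 (log2 fold change -0.33 ± 0.13, edgeR adjusted p = 0.737) and its groups did not overlap. Rab3a had 266, 249 and 204 CPM in treated and 288, 284 and 254 CPM in control ganglia, and treated replicate 1 was above the lowest control (log2 fold change -0.20 ± 0.12). Rab3c and Rab3d were at -0.26 ± 0.16 and -0.20 ± 0.11. The log2 fold changes without treated replicate 3 were -0.24 for Rab3b, -0.094 for Rab3a, -0.12 for Rab3c and -0.11 for Rab3d.

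At the active zone, Rims1 had the smallest p of the 46 genes. Rims1 (chromosome 1, 22286251 to 22805994, minus strand), the scaffold that recruits calcium channels and primed vesicles, had 78.0, 57.7 and 76.3 CPM in treated ganglia, against 55.8, 53.3 and 51.2 CPM in controls. All treated libraries were above all controls, treated replicate 2 by only about 2 CPM. Its log2 fold change was 0.40 ± 0.13 (SE; edgeR adjusted p = 0.670), and 0.35 without treated replicate 3. Rims2 was at -0.019 ± 0.11 and Bassoon (Bsn) at 0.013 ± 0.14. Piccolo (Pclo) had 988, 900.3 and 691 CPM in treated and 1024, 971 and 1035 CPM in control ganglia (log2 fold change -0.23 ± 0.14, and -0.097 without treated replicate 3), where treated replicate 1 was above the lowest control. The clathrin adaptor Snap91 (AP180), which despite its symbol is no SNARE, had 216, 211 and 126 CPM in treated and 202, 204 and 194 CPM in control ganglia. It lay above the controls in 2 treated libraries and far below them in the remaining one, with a log2 fold change of -0.12 ± 0.20, and 0.092 without treated replicate 3.

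**Figure D4:**
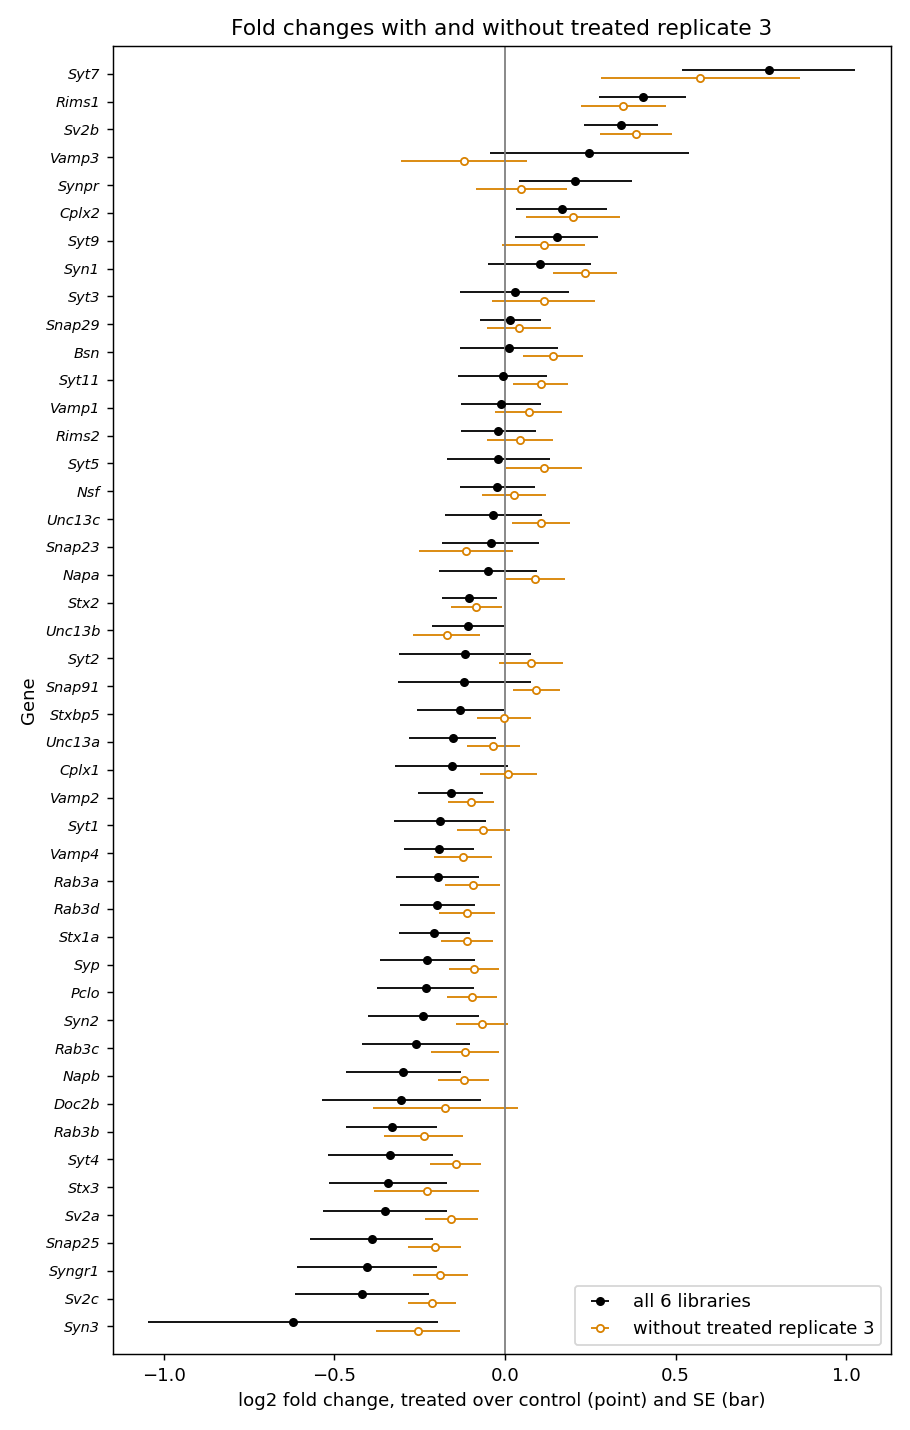
Log2 fold change, treated over control, with its SE, of each of the 46 release genes with all 6 libraries (black) and without treated replicate 3 (open orange). Most negative values move toward 0 without that library, and Rims1 and Sv2b stay at 0.35 and 0.38.

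Shares within a gene family do not depend on how libraries are scaled to each other. Per kb of exon, Sv2b made up 7.99%, 6.44% and 10.5% of Sv2a, Sv2b and Sv2c together in treated ganglia, against 4.83%, 4.94% and 5.03% in controls. Sv2c made up 75.9% ± 1.83 in treated and 79.4% ± 0.366 in control ganglia (SD, n = 3 each), while Sv2a made up 15.8% ± 1.02 and 15.7% ± 0.272. Rims1 made up 45.4%, 42.6% and 50.4% of Rims1 and Rims2 in treated ganglia, against 39.1%, 40.6% and 37.6% in controls. The groups did not overlap for Sv2b, Sv2c and Rims1, and for these treated replicate 3 was the farthest from the controls, whereas for Sv2a they overlapped. The treated mean without treated replicate 3 was 7.22% for Sv2b, 76.9% for Sv2c and 44.0% for Rims1.

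Syn1 held 85.6%, 87.2% and 88.2% of the synapsins in treated and 83.8%, 84.6% and 82.1% in control ganglia. Napa held 40.6%, 41.0% and 43.3% of Napa and Napb in treated and 38.1%, 38.7% and 35.1% in control ganglia. Among the 8 synaptotagmins, Syt7 held 6.24%, 4.36% and 10.1% in treated and 4.14%, 3.84% and 2.95% in control ganglia. Syt4 held 31.7%, 33.5% and 26.6% in treated and 36.7%, 34.2% and 38.8% in control ganglia. In each of these the groups did not overlap, though Syt7 and Syt4 came within 1 percentage point of doing so. Of the 34 shares in 11 families 14 had groups without overlap, and the shares of 1 family are not independent of each other. The same count was not made over other gene families, so whether 14 is many or few is not known. Counted without division by length, 12 did, as Syt11 and Unc13a then overlapped. In the Vamp, Snap25, Rab3, complexin and syntaxin families the groups overlapped for every share. Rab3a held 62.7% ± 0.643 of the Rab3 genes in treated and 62.0% ± 0.595 in control ganglia, and Vamp1 8.52% ± 0.444 and 7.77% ± 0.551 of Vamp1 and Vamp2.

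**Figure D5:**
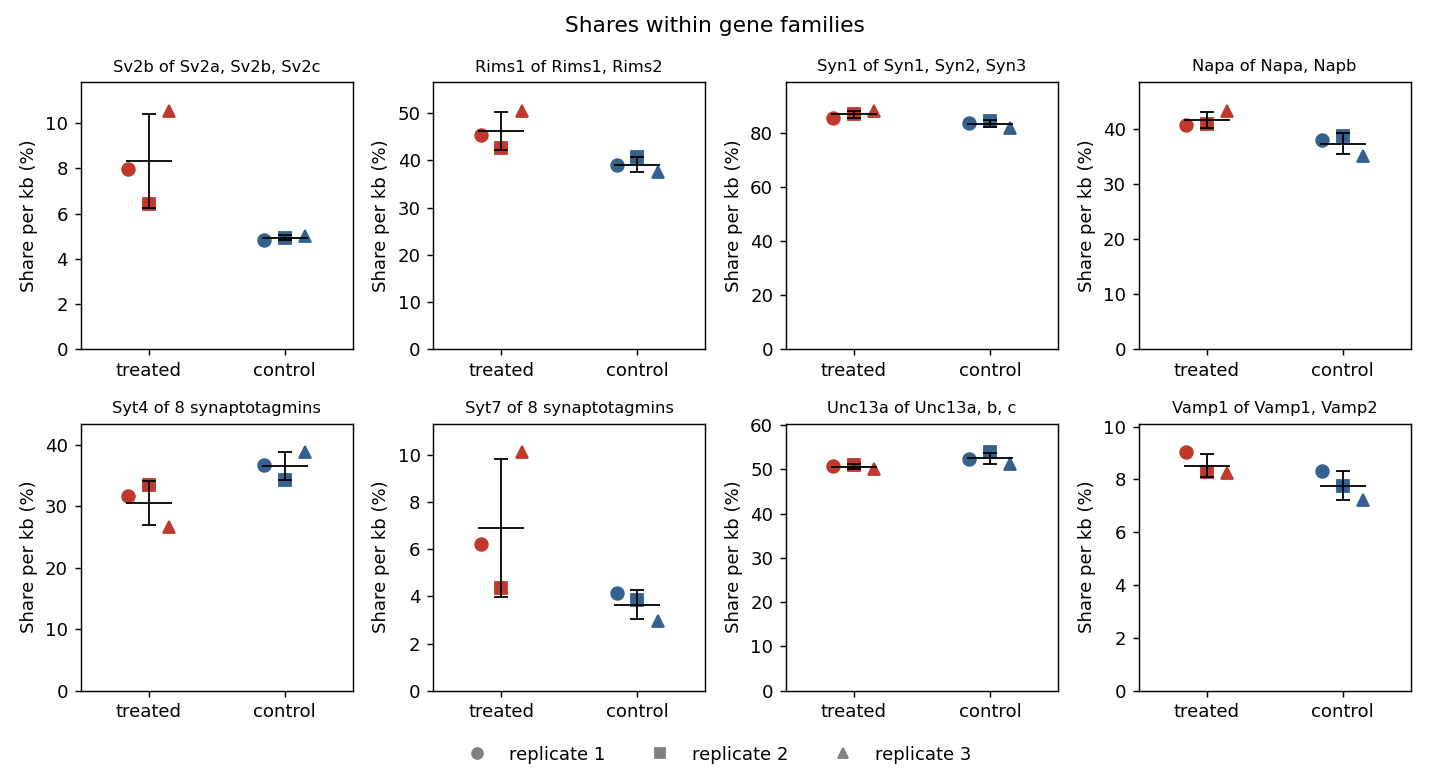
Share of a gene within its family in percent, computed from CPM per kb of exon, for each treated (left) and control (right) library, with the mean and SD (n = 3 each). Sv2b is at 6.44% to 10.5% in treated and 4.83% to 5.03% in control libraries, and the Vamp1 groups overlap.

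The rest of the pathway was read from 2 further lists that exclude the 46 genes. Of 68 tested genes for release and the active zone, 32 were positive and 36 negative, the median log2 fold change was -0.035, and 0 passed in either direction by edgeR. In 7 the treated libraries were all above the controls and in 7 all below, where 7.07% and 7.63% of all genes were. Syt6 and Rph3a had the smallest p. Rph3a, the rabphilin that binds Rab3 on vesicles, had 321, 229.7 and 343 CPM in treated ganglia, against 199.5, 198 and 146 CPM in controls, a log2 fold change of 0.72 ± 0.18 (edgeR adjusted p = 0.621). Syt6 was at 0.84 ± 0.21 (edgeR adjusted p = 0.599). In both the groups did not overlap.

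Of 26 tested genes for vesicle endocytosis, 10 were positive and 16 negative, the median log2 fold change was -0.020, and 0 passed by edgeR. Treated libraries all lay above the controls for 4 and below them for 1, Sh3gl3, where 7.07% and 7.63% of all genes did. That gene, an endophilin that bends membranes at the neck of endocytic pits, had 22.1, 22.8 and 14.4 CPM in treated ganglia, against 35.0, 31.2 and 35.6 CPM in controls (log2 fold change -0.77 ± 0.18, edgeR adjusted p = 0.595). Its relative Sh3gl1 was at 0.30 ± 0.12 and Ston2, a sorting adaptor for synaptotagmin, at 0.28 ± 0.12. Treated replicate 3 was low in both lists as well, at a median of -0.13 and -0.093 relative to the control mean, where the 46 release genes stood at -0.38. Without it, 39 of the 68 and 17 of the 26 genes were positive.

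By background knowledge, 37 of the 46 genes belong mainly to neurons and neuroendocrine cells and 9 are broadly expressed. The median log2 fold change was -0.15 over the first class and -0.049 over the second, and without treated replicate 3 it was -0.034 and -0.11. In treated replicate 3 the medians relative to the control mean were -0.43 and -0.15. The coefficient of variation over 3 libraries had a median of 17.2% in treated ganglia, against 5.8% in controls, over the 46 genes, and of 16.8% and 10.6% over all genes tested. It was larger in treated ganglia for 42 of the 46 genes (91.3%, where 69.9% of all genes did so). Without treated replicate 3 its median in treated ganglia was 7.3% over the 46 genes and 7.9% over all genes tested. It was then larger in treated ganglia than in controls for 22 genes (47.8%, where 38.6% of all genes did so). A spread over fewer libraries is not directly comparable with the spread over 3 controls.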

How the data were processed

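RNA of vagal jugular-nodose ganglia was sequenced in 6 libraries, 3 treated and 3 control by title. The deposited values are raw exonic read counts per gene, 1 file per library. Per the submitters' processing notes, bcl2fastq 2.20, STAR 2.7.7a, DESeq2 and edgeR were used with build mm10. What counted the reads, with which annotation release and on which strand, is not given in the sources used here. Gene identifiers were matched to GENCODE M21 (GRCm38, the same build), which supplied coordinates and exon lengths for 32663 of 32719 genes. Summary lines in the files name no gene and were left out.

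Counts were fitted with edgeR 4.0.16 (R 4.3.3): filterByExpr with a minimum count of 10, TMM scaling and a robust quasi-likelihood F test of treated against control. P-values were adjusted by Benjamini-Hochberg over all 16019 genes tested at a threshold of 0.05. The SE is the size of the log2 fold change divided by the square root of F. For log2 CPM of single libraries 2 counts were added as a prior. Single genes were compared on that scale by exact permutation tests of both sides. Alternatives used other scalings, filters, limma 3.58.1, DESeq2 1.42.0, a replicate block and each library left out. Procedures were tried on simulated counts with a capped spread between libraries and no outlying library. That trial does not cover data with a library like treated replicate 3. The members and lists were chosen with earlier results of these data known. Values per library are given for the 8 members with the smallest p, the most abundant member of each role and members whose groups do not overlap. Of the further lists the 3 genes with the smallest p in each are named, except 1 that is not reported here.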

Additional observations from a re-analysis of the deposited data

How the results depend on the processing

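No release gene was called under any of the alternatives run, and 31 of the 46 kept the sign of their log2 fold change in all of them. For the others the sign changed in 49 of 736 values, and the cause was not tested. Scaled by library size only, Syt11 was at 0.0061 and Vamp1 at 4e-04. Scaled on pan-neuronal genes, which moved the median of all genes to 0.0869, Syt5 was at 0.029, Syt11 at 0.050, Vamp1 at 0.050, Snap23 at 0.038, Unc13c at 0.012, Nsf at 0.045, Napa at 0.0037 and Rims2 at 0.040. That scaling put 4 release genes above and 16 below all controls, where 6.04% and 6.5% of all genes were. It gave 19 positive and 27 negative log2 fold changes. By edgeR 12 release genes (26.1%) then had an unadjusted p under 0.05, where 6.14% of all genes did. With limma-voom Syt5 was at 0.0017 and Bsn at -0.0038. With sample weights Syt2 was at 0.011, Syt5 at 0.055, Syt11 at 0.042, Vamp3 at -0.0098, Snap91 at 0.020, Unc13c at 0.030 and Napa at 0.010. Leaving out each library in turn gave -0.069 to 0.14 for Bsn, -0.26 to 0.0094 for Cplx1, -0.16 to 0.089 for Napa, -0.11 to 0.040 for Nsf, -0.14 to 0.043 for Rims2, -0.11 to 0.028 for Snap23, -0.029 to 0.051 for Snap29, -0.26 to 0.092 for Snap91, -0.11 to 0.10 for Syt11, -0.29 to 0.077 for Syt2, -0.056 to 0.13 for Syt3, -0.17 to 0.11 for Syt5, -0.19 to 0.11 for Unc13c, -0.11 to 0.069 for Vamp1 and -0.12 to 0.44 for Vamp3. The median over the 46 genes ran from -0.24 to -0.0655, and the number of all genes called from 0 to 9. The number of release genes above all controls ran from 2 to 6 and the number below from 12 to 22. In these fits 20.55% to 30.75% of all genes had groups without overlap in either direction, against 14.7% with all libraries. Over all genes, 26 were called without a filter, 89 by DESeq2 and 9 by limma-voom with sample weights. With the replicate number as a replicate block 1 gene was called, the member median was -0.15 and 9 members (19.6%) had an unadjusted p under 0.05, where 9.43% of all genes did, against 4 members (8.7%) and 6.67% of all genes without it. Same-numbered libraries deviated together with correlations of 0.014, 0.564 and 0.488. Treated replicates 2 and 3 correlated best with the control of the same number, and treated replicate 1 with control replicate 2 (0.253). The labels do not say whether the numbers pair the libraries. These correlations cannot settle it, because deviations within a group of 3 depend on each other. The adjusted p of Rims1 ran from 0.262 to 0.995 and that of Syt7 from 0.126 to 0.995 over the alternatives. Counts were at least 92 per release gene and library, and counting error is largest in treated replicate 3, the shallowest library.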
